A study of Mus musculus with 12 samples.

Results

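The Wnt signalling genes described here were 43 ligands, receptors, inhibitors, intracellular components and feedback targets, given as a list of gene names. All 43 were among the 51707 genes that could be assembled from the deposited transcript files, and 31 of them had enough reads to enter the tests, which covered 14711 genes. RNA sequencing had been done on 12 libraries of mouse cells labelled MLO-Y4 (genotype WT), an osteocyte-like line immortalised with the SV40 large T antigen under the osteocalcin promoter. In the deposited data each library is named with MC3, a code that the labels leave unexplained, and no test of which line was sequenced was made here. The groups were differentiated cells given BIGH3, differentiated control cells, undifferentiated cells given BIGH3 and undifferentiated control cells, with 3 libraries in each. BIGH3, the protein encoded by TGFBI, is a matrix protein that binds integrins and was added as recombinant human protein. All 4 groups grew on collagen type I at 0.15 mg/mL. The medium for differentiation held ascorbic acid at 50 µg/mL, β-glycerophosphate at 4 mM and serum at 10%. For undifferentiated cells none of these is stated, so a state of differentiation and a direct effect of the medium cannot be told apart. Dose and duration of BIGH3 exposure, and what the control cells received, are not stated in the labels. Separate cultures are not stated for the 3 libraries of a group, and p-values therefore measure the spread between these libraries, which may be technical.

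Wnt proteins bind Frizzled receptors together with the co-receptors LRP5 or LRP6. In the canonical branch this holds back the destruction complex of AXIN, APC and GSK3, so that β-catenin accumulates and acts with TCF and LEF factors on target genes. In bone the pathway promotes osteoblast formation, and osteocytes are a main source of secreted inhibitors that act on LRP5 and LRP6.

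Depth was 19014492 to 27612155 estimated reads per library. Liver transcripts were highest in 3 of the 12 libraries (undifferentiated control 2, differentiated BIGH3 3 and differentiated control 2), with summed levels of 8 liver markers at 93.0, 66.9 and 41.4 CPM (reads relative to the library's total). In the other 9 libraries the sum was 2.03 to 25.1 CPM. Each call below was also made without those 3 liver-rich libraries, and a difference is given where it arose. Among defining osteocyte markers Fgf23 had no read in any library, and Sost and Mepe stayed below 1 CPM in every library, while Dmp1, Phex and Pdpn were expressed. RNA was measured in bulk, so fewer cells of a type and less RNA per cell cannot be told apart.

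The genes covered a wide span of levels, which are compared here in TPM, a transcript share corrected for transcript length. The gene for β-catenin, Ctnnb1, averaged 242 ± 11 TPM in differentiated BIGH3 cells, 260 ± 16 in differentiated control cells, 279 ± 16 in undifferentiated BIGH3 cells and 286 ± 12 in undifferentiated control cells (SD, n = 3 each, as for all levels below). Sfrp2, which encodes a secreted protein that binds Wnts, averaged 135 ± 4.3 TPM, 216 ± 9.4 TPM, 366 ± 14 TPM and 390 ± 16 TPM in the same 4 groups. Dkk3, a divergent member of the Dickkopf family, ranged over groups between 148 and 221 TPM. Rspo2, which encodes an R-spondin that raises the number of Frizzled receptors at the cell surface, ranged between 129 and 171 TPM. These were the 4 most abundant members, and their order differed between groups: Sfrp2 ranked first in undifferentiated cells and Ctnnb1 in differentiated cells. The ranks count all transcripts of a gene. Transcripts annotated as retained intron made up 37.4 ± 1.9% of Ctnnb1 TPM in differentiated BIGH3 and 35.9 ± 2.0% in differentiated control cells. By protein-coding transcripts alone Ctnnb1 did not rank first in either differentiated group. The neighbours Rspo2 and Dkk3 averaged 158 ± 3.6 and 148 ± 5.0 TPM in differentiated BIGH3 cells, a difference little above their spread.

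**Figure D1:**
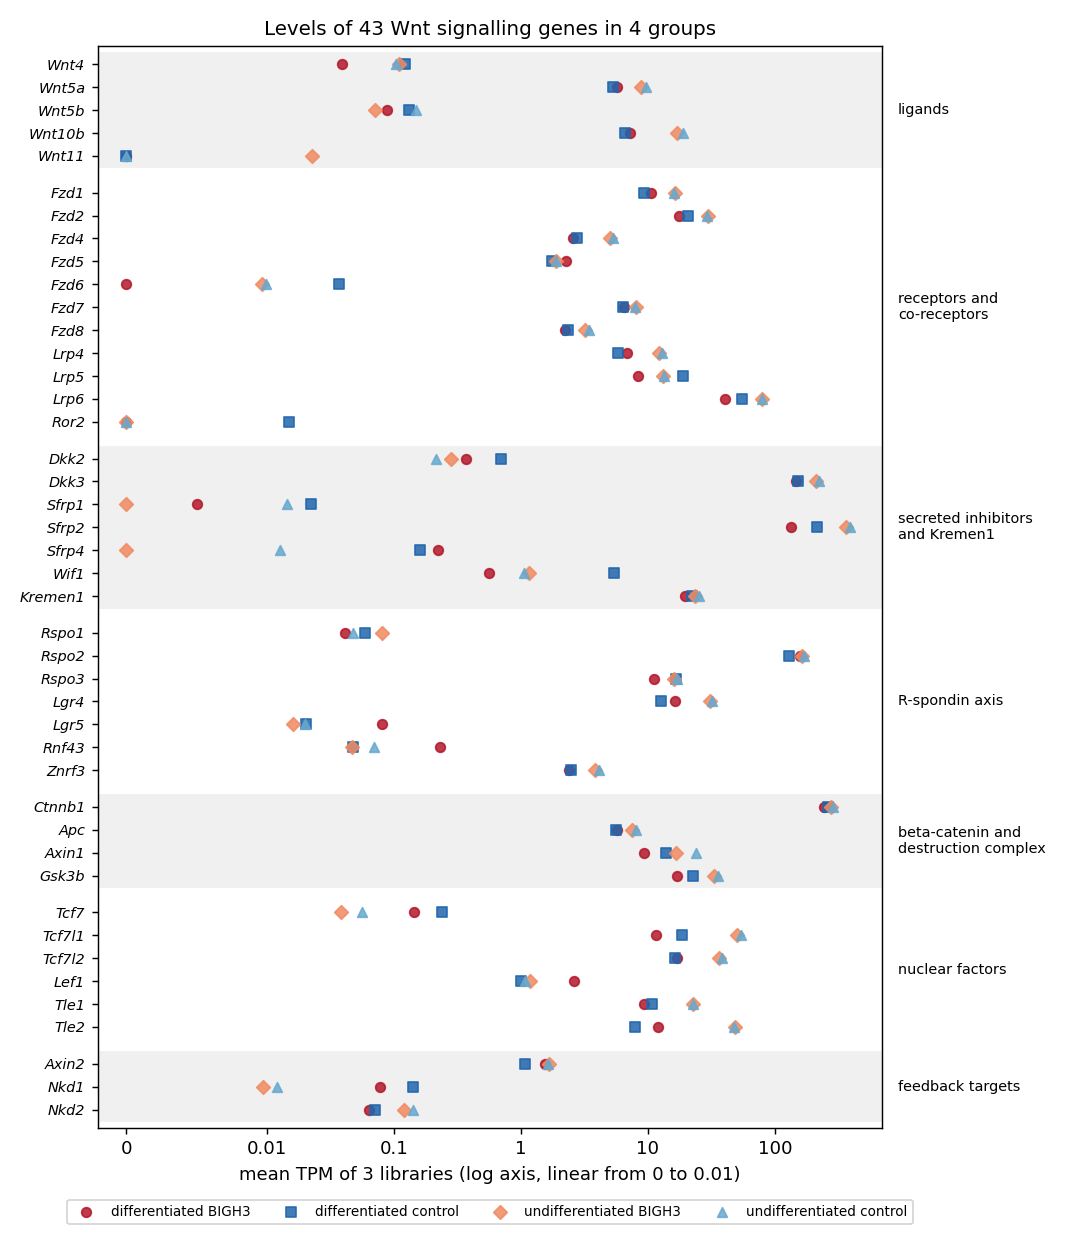
Mean TPM of the 43 Wnt signalling genes in the 4 groups (points, 3 libraries each), by role, on a log axis that is linear from 0 to 0.01. Ctnnb1, Sfrp2, Dkk3 and Rspo2 lie above 100 TPM in all groups, Wif1 stands apart in differentiated control cells at 5.37 TPM, and the members that were not tested lie below 1 TPM.

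Lrp6 was the most abundant co-receptor, at 40.3 ± 3.7, 54.7 ± 2.9, 78.9 ± 6.4 and 79.8 ± 3.9 TPM in differentiated BIGH3, differentiated control, undifferentiated BIGH3 and undifferentiated control cells. Lrp5 lay between 8.34 and 18.9 TPM. Among the Frizzled receptors Fzd2 was highest, with group means between 17.5 and 29.6 TPM. Fzd1 followed at 9.28 to 16.3 TPM, Fzd7 at 6.42 to 8.07 TPM, and Fzd4, Fzd8 and Fzd5 were lower, between 1.77 and 5.35 TPM. Among ligands Wnt10b (6.56 to 19 TPM) and Wnt5a (5.35 to 9.57 TPM) were measured well, and their ranges over groups overlapped.

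The 12 members without enough reads for a test were Wnt5b, Wnt11, Fzd6, Ror2, Sfrp1, Sfrp4, Rspo1, Lgr5, Rnf43, Tcf7, Nkd1 and Nkd2. Apart from Tcf7, with at most 18 reads in a library, each had fewer than 10 reads in every library. Wnt11, a ligand of the β-catenin-independent branch, had 1 read in all 12 libraries together, and Ror2, a receptor for Wnt5a, had 3. Sfrp4, a secreted Wnt-binding inhibitor, had 19 reads in differentiated BIGH3 cells, 10 in differentiated control cells, 0 in undifferentiated BIGH3 cells and 1 in undifferentiated control cells, each summed over 3 libraries. A count of 0 allows up to 3 reads by counting error alone. Tcf7, a TCF factor, had 16, 32, 4 and 6 reads in the same 4 groups. Differences between groups were not tested for these 12 members.

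Whether BIGH3 altered Wnt pathway transcripts in differentiated cells was addressed by comparing differentiated BIGH3 with differentiated control libraries. Of 5 tested inhibitors of Wnt or its co-receptors 4 were lower with BIGH3 (Wif1, Sfrp2, Dkk2 and Kremen1), as were the co-receptors Lrp5 and Lrp6, while the nuclear factor Lef1 and the feedback target Axin2 were higher. The calls of Dkk2 and Axin2 each held in only 11 of 22 alternative settings, and that of Kremen1 in 20. Of the 31 members tested, 7 rose and 11 fell, which is 58.1% called at an adjusted p below 0.05. The background in this comparison was high: 45.5% of the 14711 genes were called, 22.6% as higher and 22.9% as lower, against 22.6% and 35.5% of the members. The median log2 fold change of the members was -0.10, against -0.01 for all genes. Their median size was 0.28 in either direction, against 0.254 for all genes. Adjusted p-values are from edgeR's quasi-likelihood test with Benjamini-Hochberg adjustment over all 14711 genes, and errors of log2 fold changes are standard errors (SE).

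Wif1, encoding Wnt inhibitory factor, a secreted protein that binds Wnt ligands directly, lies at chr10:121033960-121100650 on the plus strand (GRCm38). It had 1.14, 0.856 and 0.672 CPM in differentiated BIGH3 libraries, 9.63, 8.82 and 8.69 CPM in differentiated control libraries, 1.82, 1.36 and 1.33 CPM in undifferentiated BIGH3 libraries, and 1.78, 1.47 and 1.36 CPM in undifferentiated control libraries. The 3 differentiated control libraries were high and the 9 others low, with no overlap. In differentiated cells BIGH3 lowered it by a log2 fold change of -3.32 ± 0.22 (adjusted p = 7.49e-11). The call held in 22 of 22 alternative settings, with a smallest log2 fold change of -2.04 on the log2(TPM + 1) scale, which understates changes of low genes. The summed reads were 53 in differentiated BIGH3 and 610 in differentiated control cells.

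Lef1, a DNA-binding partner of β-catenin, lies at chr3:131110471-131224356 on the plus strand. Its levels were 6.2, 5.56 and 6.94 CPM in differentiated BIGH3 libraries, 1.86, 2.83 and 2.01 CPM in differentiated control libraries, 2.47, 2.43 and 1.82 CPM in undifferentiated BIGH3 libraries, and 2.02, 2.41 and 2.23 CPM in undifferentiated control libraries. Here the differentiated BIGH3 libraries were high and the 9 others low. BIGH3 raised Lef1 in differentiated cells by a log2 fold change of 1.48 ± 0.20 (adjusted p = 4.05e-06). It was called in 22 of 22 alternative settings, at 0.87 on the log2(TPM + 1) scale. Lef1 and Wif1 thus each had 1 group of the 4 standing apart, the differentiated BIGH3 group for Lef1 and the differentiated control group for Wif1.

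The sequences before the transcription starts of Wif1 and Lef1 are shown because these members had the 2 largest called changes with BIGH3, and that of Gsk3b as the more precisely measured of the 2 called members that held a searched motif. They were taken from RefSeq (GRCm38.p6), 5′ to 3′ on the gene's strand. The Wif1 window is chr10:121033754-121033959 (+), cut at the first annotated base of the gene. The Lef1 window is chr3:131110047-131110296 (+), the first of 4 listed starts, and the Gsk3b window is chr16:38088751-38089000 (+). Capitals mark the match to an NF-kB consensus.
Wif1: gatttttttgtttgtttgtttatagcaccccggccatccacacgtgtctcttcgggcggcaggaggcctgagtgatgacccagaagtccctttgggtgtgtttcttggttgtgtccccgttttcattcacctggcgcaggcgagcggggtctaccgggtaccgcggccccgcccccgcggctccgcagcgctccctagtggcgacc
Lef1: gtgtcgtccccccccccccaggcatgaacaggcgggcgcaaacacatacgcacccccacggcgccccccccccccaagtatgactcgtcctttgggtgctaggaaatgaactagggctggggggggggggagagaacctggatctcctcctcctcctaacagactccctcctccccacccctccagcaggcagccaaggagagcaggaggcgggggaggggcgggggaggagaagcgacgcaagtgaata
Gsk3b: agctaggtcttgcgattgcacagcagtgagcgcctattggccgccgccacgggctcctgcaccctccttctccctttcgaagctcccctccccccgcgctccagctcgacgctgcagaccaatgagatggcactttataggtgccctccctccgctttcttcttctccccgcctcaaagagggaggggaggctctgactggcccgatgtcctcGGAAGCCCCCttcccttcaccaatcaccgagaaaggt
GC content was 61.7%, 66.4% and 62.0% in the 3 windows.

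A search for 3 motifs was made on both strands of the 250 bases before each start, with overlapping matches counted once per window. They were the TCF/LEF letters CTTTGAT or CTTTGAA, the AP-1 letters TGANTCA and the NF-kB consensus. Of 32851 mouse windows, 7.48%, 6.75% and 7.25% held them. Of the 36 windows of 26 members with an entry, 2 held TCF/LEF letters, 2 held AP-1 letters and 4 held the NF-kB consensus. The TCF/LEF matches were in windows of Wnt11 and Wnt5b, which had too few reads for a test, and the NF-kB matches were in windows of Fzd5, Gsk3b, Tcf7l2 and Wnt10b. The Gsk3b match began 37 bases before the start. A match is a description of letters, and the windows of Wif1 and Lef1 held none of the 3 motifs.

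Of the other inhibitors Sfrp2, Dkk2 and Kremen1 were lower with BIGH3. Sfrp2 (chr3:83766321-83774316, plus strand) had 195, 188 and 178 CPM in differentiated BIGH3 libraries, 304, 302 and 302 CPM in differentiated control libraries, 441, 435 and 420 CPM in undifferentiated BIGH3 libraries, and 455, 418 and 462 CPM in undifferentiated control libraries. Levels were lower in differentiated than in undifferentiated libraries and lowest with BIGH3, and the differentiated groups did not overlap. BIGH3 lowered Sfrp2 in differentiated cells by a log2 fold change of -0.69 ± 0.05 (adjusted p = 2.56e-10), a call that held in 22 of 22 alternatives. Dkk2, whose protein binds LRP5 and LRP6, lies at chr3:132085292-132180304 on the plus strand. It had 1.60, 0.856 and 0.839 CPM in differentiated BIGH3 libraries, 2.15, 1.89 and 2.20 CPM in differentiated control libraries, 0.527, 1.08 and 0.580 CPM in undifferentiated BIGH3 libraries, and 0.703, 0.449 and 0.419 CPM in undifferentiated control libraries. The differentiated groups did not overlap, but the BIGH3 libraries spread widely. For Dkk2 the log2 fold change was -0.91 ± 0.36 (adjusted p = 0.0433), and it was called in 11 of 22 alternatives, with adjusted p-values from 0.0162 to 0.150, the highest without the 3 liver-rich libraries. Leaving out differentiated BIGH3 2 or 3 gave 0.145 and 0.139, and leaving out differentiated control 1, 2 or 3 gave 0.0984, 0.0606 and 0.0997.

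Kremen1 encodes a membrane receptor for Dickkopf proteins that removes LRP6 from the surface. It averaged 78.6 ± 3.8 CPM in differentiated BIGH3 and 90.3 ± 2.4 CPM in differentiated control cells, with a log2 fold change of -0.20 ± 0.05 (adjusted p = 0.00207). On both TPM scales Kremen1 was not called (adjusted p = 0.0633 and 0.0629). Dkk3 was the inhibitor that was not called, with 402 ± 3.6 CPM in differentiated BIGH3 and 416 ± 2.6 CPM in differentiated control cells and a log2 fold change of -0.05 ± 0.04 (adjusted p = 0.395).

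**Figure D2:**
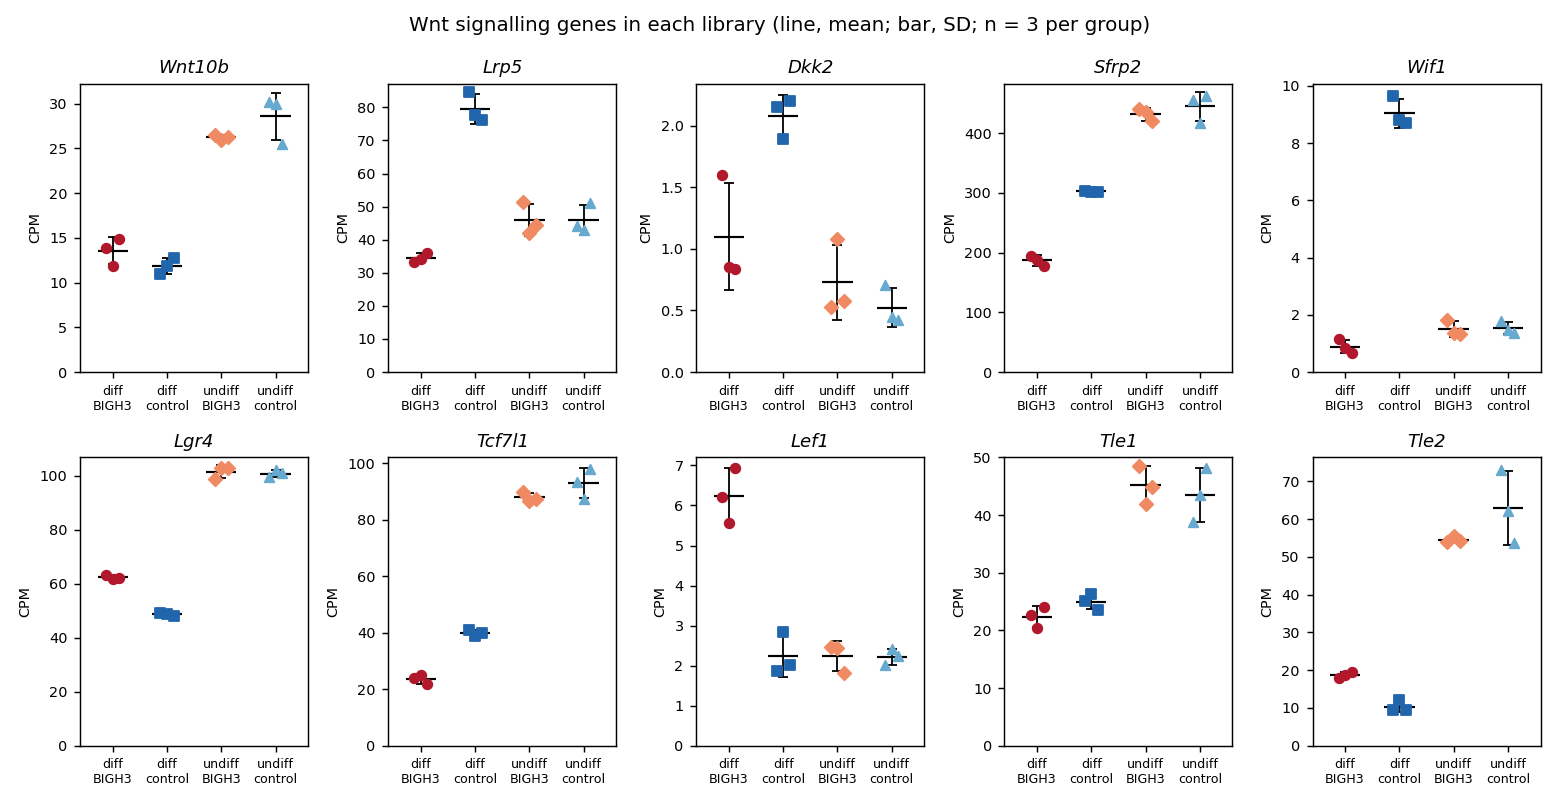
Level in CPM of 10 Wnt signalling genes in each library (points), with the group mean (line) and SD (bar), for the 4 groups of 3 libraries. Wif1 is high in differentiated control libraries alone (8.69 to 9.63 CPM), and Lef1 in differentiated BIGH3 libraries alone (5.56 to 6.94 CPM).

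Among 9 receptors and co-receptors tested, 3 fell and 2 rose with BIGH3 in differentiated cells. This is 55.6% called, near the 45.5% of all genes. Lrp5, a co-receptor whose loss lowers bone mass in humans and mice, lies at chr19:3584828-3686564 on the minus strand. It had 33.3, 34.2 and 36 CPM in differentiated BIGH3 libraries, 84.6, 77.8 and 76.1 CPM in differentiated control libraries, 51.5, 41.9 and 44.5 CPM in undifferentiated BIGH3 libraries, and 44.0, 42.9 and 51.1 CPM in undifferentiated control libraries. The undifferentiated libraries of both treatments lay between the differentiated groups, which were apart from them on either side. For Lrp5 the log2 fold change was -1.20 ± 0.08 (adjusted p = 1.15e-10), a 2.3-fold lower level with BIGH3, and the call held in 22 of 22 alternatives. Lrp6, the closest relative of Lrp5, averaged 261 ± 18 CPM in differentiated BIGH3 and 353 ± 5.2 CPM in differentiated control cells, with a log2 fold change of -0.44 ± 0.05 (adjusted p = 7.19e-07). Both co-receptors of the canonical branch were therefore lower in the treated cells.

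Fzd2 was also lower, at 46.5 ± 1.8 CPM in differentiated BIGH3 and 56.2 ± 2.3 CPM in differentiated control cells (log2 fold change -0.27 ± 0.06, adjusted p = 0.00146). Fzd5 was higher, at 12.4 ± 1.1 and 9.78 ± 0.94 CPM in the same groups (log2 fold change 0.35 ± 0.11, adjusted p = 0.0130). Lrp4, a receptor that also anchors sclerostin, was higher at 45.9 ± 2.7 and 39.9 ± 0.91 CPM (log2 fold change 0.20 ± 0.07, adjusted p = 0.0232). The 2 rises were less stable than the 3 falls: Fzd5 was called in 17 and Lrp4 in 12 of 22 alternatives. Without differentiated BIGH3 1, differentiated BIGH3 2 or differentiated control 1 the adjusted p of Fzd5 was 0.0601, 0.0552 and 0.0869. Without differentiated BIGH3 2 or 3 or differentiated control 2 or 3 that of Lrp4 was 0.0564, 0.153, 0.0890 and 0.0903. Leaving out the 3 liver-rich libraries gave Lrp4 a log2 fold change of 0.13 (adjusted p = 0.263). Fzd1, Fzd4, Fzd7 and Fzd8 were not called, with log2 fold changes between -0.10 and 0.17.

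None of the 3 member ligands tested was called with BIGH3 in differentiated cells, against 45.5% of all genes. Outside the members 3 further ligands were tested, and all 3 were called, 2 as higher and 1 as lower (given below). Wnt10b, a ligand that promotes bone formation in mice, lies at chr15:98770712-98778150 on the minus strand. It had 13.9, 11.9 and 14.9 CPM in differentiated BIGH3 libraries, 11, 11.9 and 12.8 CPM in differentiated control libraries, 26.5, 25.9 and 26.3 CPM in undifferentiated BIGH3 libraries, and 30.2, 30.0 and 25.5 CPM in undifferentiated control libraries. The differentiated groups overlapped, and both lay below all undifferentiated libraries. The log2 fold change was 0.19 ± 0.10 (adjusted p = 0.124), and without differentiated BIGH3 2 Wnt10b was called (adjusted p = 0.0409). Wnt5a, mainly a ligand of the β-catenin-independent branch, had 23.3 ± 2.7 CPM in differentiated BIGH3 and 23.3 ± 0.83 CPM in differentiated control cells. Wnt4 rested on 8 reads in differentiated BIGH3 and 27 in differentiated control cells (log2 fold change -1.55 ± 0.77, adjusted p = 0.108). Its level was 0.849 CPM in differentiated control 2, a liver-rich library, against 0.289 and 0.0915 CPM in differentiated control 1 and 3. It was called without differentiated control 3 (adjusted p = 0.0409).

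R-spondins keep Frizzled receptors at the surface by binding LGR receptors and the ligases RNF43 and ZNRF3, which otherwise remove them. Rspo2 averaged 381 ± 3.2 CPM in differentiated BIGH3 and 313 ± 4.4 CPM in differentiated control cells (log2 fold change 0.28 ± 0.05, adjusted p = 7.59e-05). Rspo3 was lower, at 26.4 ± 1.1 and 37.9 ± 1.5 CPM (log2 fold change -0.52 ± 0.07, adjusted p = 2.81e-06). The pair of expressed R-spondins thus changed in opposite directions. Lgr4, the listed LGR receptor that had enough reads for a test (chr2:109917647-110014257, plus strand), had 63.2, 61.8 and 62.1 CPM in differentiated BIGH3 libraries, 49.2, 49.0 and 48.2 CPM in differentiated control libraries, 98.7, 103 and 103 CPM in undifferentiated BIGH3 libraries, and 99.4, 102 and 101 CPM in undifferentiated control libraries. The differentiated groups did not overlap, and both lay below the undifferentiated ones. For Lgr4 the log2 fold change with BIGH3 was 0.35 ± 0.05 (adjusted p = 2.13e-06). Znrf3 was not called, at 10.8 ± 0.82 CPM in differentiated BIGH3 and 11.9 ± 0.76 CPM in differentiated control cells (adjusted p = 0.265).

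Of β-catenin and 3 members of its destruction complex, 2 fell with BIGH3 in differentiated cells. That is 50% called, near the 45.5% of all genes. Gsk3b, encoding a kinase that marks β-catenin for degradation, averaged 108 ± 2.2 CPM in differentiated BIGH3 and 144 ± 0.73 CPM in differentiated control cells (log2 fold change -0.42 ± 0.04, adjusted p = 9.18e-08). Ctnnb1 itself averaged 512 ± 10 and 570 ± 18 CPM in the same groups (log2 fold change -0.15 ± 0.04, adjusted p = 0.00747). Its call was lost on both TPM scales (adjusted p = 0.223 and 0.225), and the annotation types 37.4 ± 1.9% of its TPM in differentiated BIGH3 and 35.9 ± 2.0% in differentiated control cells as retained-intron transcripts. Apc, a scaffold of the complex, was not called (log2 fold change -0.02 ± 0.06, adjusted p = 0.800). Axin1, the other scaffold, averaged 28.1 ± 3.7 CPM in differentiated BIGH3 and 35.1 ± 12 CPM in differentiated control cells (log2 fold change -0.31 ± 0.29, adjusted p = 0.426). Its spread came with single transcripts: Axin1-202 was at 0 TPM in 8 libraries, at 8.22 TPM in differentiated control 2, at 6.33 and 5.39 TPM in undifferentiated BIGH3 2 and 3, and at 14.5 TPM in undifferentiated control 2. Without the 3 liver-rich libraries the log2 fold change of Axin1 was 0.04.

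Axin2, a feedback inhibitor that β-catenin itself induces, averaged 4.53 ± 0.53 CPM in differentiated BIGH3, 3.24 ± 0.23 CPM in differentiated control, 3.44 ± 0.22 CPM in undifferentiated BIGH3 and 4.13 ± 0.51 CPM in undifferentiated control cells. The log2 fold change with BIGH3 in differentiated cells was 0.48 ± 0.17 (adjusted p = 0.0234). It was called in 11 of 22 alternatives, and leaving out differentiated BIGH3 2 or 3 or differentiated control 1 or 3 gave adjusted p-values of 0.0797, 0.0850, 0.0813 and 0.0665. Without the 3 liver-rich libraries it was 0.0986. Nkd1 and Nkd2, the other listed feedback targets, had too few reads for a test.

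Nuclear factors moved in both directions. Tcf7l1, a TCF that acts mainly as a repressor, lies at chr6:72626378-72789254 on the minus strand. It had 24, 25.2 and 21.8 CPM in differentiated BIGH3 libraries, 40.8, 38.7 and 39.9 CPM in differentiated control libraries, 89.7, 86.7 and 87.4 CPM in undifferentiated BIGH3 libraries, and 93.2, 87.3 and 98.0 CPM in undifferentiated control libraries. Its level was lowest in differentiated BIGH3 libraries, with no overlap with differentiated control libraries. The log2 fold change was -0.75 ± 0.06 (adjusted p = 4.12e-09). Tcf7l2, the TCF at the most similar level, was not called, at 43.5 ± 1.1 CPM in differentiated BIGH3 and 43.8 ± 2.2 CPM in differentiated control cells (log2 fold change -0.01 ± 0.07, adjusted p = 0.933).

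Of the TLE co-repressors, which bind TCF factors in the absence of β-catenin, Tle2 rose in reads summed over its transcripts. Tle1 did not pass the test. Tle2 (chr10:81574561-81590845, plus strand) had 17.9, 18.8 and 19.6 CPM in differentiated BIGH3 libraries, 9.51, 12 and 9.43 CPM in differentiated control libraries, 53.8, 55.4 and 54.2 CPM in undifferentiated BIGH3 libraries, and 73.1, 62.2 and 53.6 CPM in undifferentiated control libraries. The differentiated groups did not overlap, and both were far below the undifferentiated libraries. The log2 fold change with BIGH3 in differentiated cells was 0.86 ± 0.11 (adjusted p = 5.98e-06), and 0.54 on the log2(TPM + 1) scale. Protein-coding transcripts made up 56.2 ± 3.3% of Tle2 TPM in differentiated BIGH3 cells, 73.6 ± 7.1% in differentiated control cells, 38.0 ± 7.3% in undifferentiated BIGH3 cells and 31.2 ± 10% in undifferentiated control cells. The rest was annotated as retained intron, at 43.8 ± 3.3% in differentiated BIGH3 and 26.4 ± 7.1% in differentiated control cells. Summed over all transcripts, Tle2 averaged 12.1 ± 3.6 and 7.85 ± 0.91 TPM in these groups. Most of the rise in TPM thus lay in transcripts that carry an intron, and a change of the protein-coding transcripts alone was not tested. Tle1 (chr4:72117142-72200919, minus strand) had 22.7, 20.4 and 24.1 CPM in differentiated BIGH3 libraries, 25.1, 26.3 and 23.6 CPM in differentiated control libraries, 48.6, 42.0 and 44.9 CPM in undifferentiated BIGH3 libraries, and 38.8, 43.5 and 48.2 CPM in undifferentiated control libraries. The differentiated groups of Tle1 overlapped (log2 fold change -0.16 ± 0.09, adjusted p = 0.157).

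Marker levels of bone and other cell types stood beside these changes. In undifferentiated cells the osteoblast sum was 2442 to 3093 CPM with BIGH3 and 2771 to 3105 CPM in controls. Nearly all of it was Col1a1, which averaged 1770 CPM in differentiated BIGH3, 2170 CPM in differentiated control, 2720 CPM in undifferentiated BIGH3 and 2920 CPM in undifferentiated control cells. With differentiation in control cells 5 of these markers were called as higher and 1 as lower, and in BIGH3 cells 3 and 2. Of all genes 57.7% and 56.6% were called in these comparisons. In differentiated cells these 7 osteoblast markers summed to 1681 to 1938 CPM with BIGH3 and 2101 to 2472 CPM in controls. All 7 were called as lower with BIGH3, in a comparison where 45.5% of all genes were called and 22.9% as lower. Sums of 6 osteocyte markers were 383 to 401 CPM with BIGH3 and 307 to 327 CPM in controls, with 2 higher and 1 lower of the 3 tested. Most of the sum was Pdpn, which was higher, at 283 ± 18 CPM with BIGH3 and 192 ± 11 CPM in controls. Dmp1 was higher, at 85.7 ± 8.3 and 37.1 ± 1.5 CPM, and Phex lower, at 23.9 ± 2.6 and 83.8 ± 3.6 CPM. Sums of 5 macrophage markers were 36.3 to 43.9 CPM with BIGH3 and 47.5 to 50.2 CPM in controls. Nearly all of this was Lyz2, while the defining markers Ptprc, Adgre1 and Csf1r averaged below 1 CPM in every group, and 1 of 3 tested was called, as lower. Sums of 4 epithelial markers were 1.96 to 8.67 CPM with BIGH3 and 4.90 to 11.3 CPM in controls, and sums of 4 endothelial markers were 4.25 to 4.60 and 5.22 to 5.66 CPM. Of 3 tested epithelial markers 1 was called, as lower, and of 3 tested endothelial markers 1 was higher and 1 lower. Liver marker sums were 23.8 to 66.9 CPM with BIGH3 and 7.61 to 41.4 CPM in controls. Of these markers 1 was called, as higher, and Trf alone, which encodes transferrin, averaged 21.8 ± 2.5 CPM with BIGH3 and 5.87 ± 1.6 CPM in controls. Afp averaged 11 ± 14 CPM with BIGH3 and 9.63 ± 13 CPM in controls, and its groups overlapped. What part the markers of these cell types had in the changes of Wnt genes was not tested.

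In undifferentiated cells none of the 31 members was called for BIGH3 against control. Of all genes 0.0204% were called, or 3 genes, with 599 at an unadjusted p below 0.05. One member, Tle2, had an unadjusted p below 0.05 (log2 fold change -0.21 ± 0.09, adjusted p = 1.00). The members' log2 fold changes ran between -0.26 (Axin2) and 0.47 (Dkk2), with a median of 0.00 and a median size of 0.04, against 0.068 for all genes. Wif1 was at -0.02 ± 0.22, Lef1 at 0.01 ± 0.21 and Lrp5 at 0.00 ± 0.08. DESeq2 also called no member, and neither did any other setting.

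**Figure D3:**
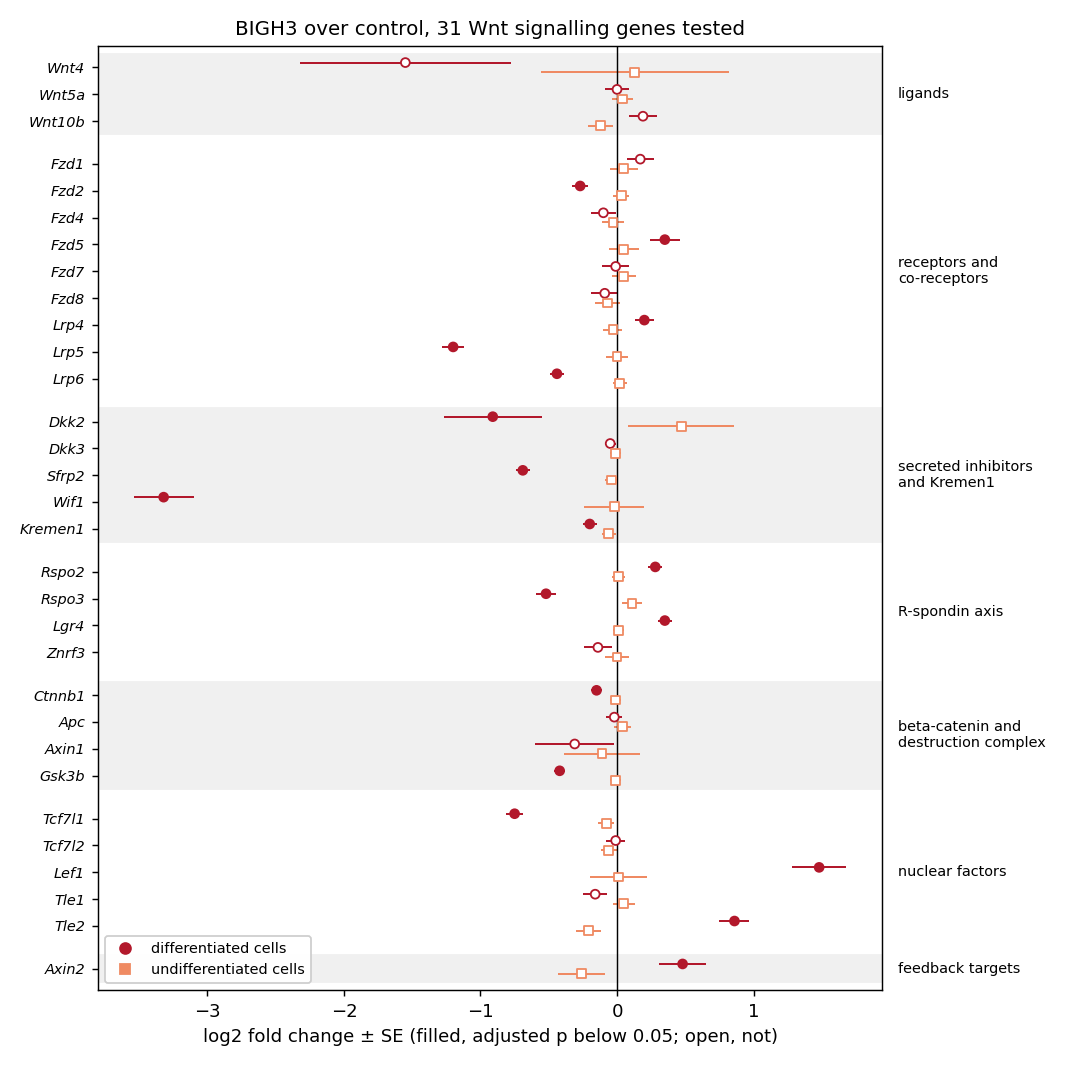
Log2 fold change of BIGH3 over control (points, with SE as bars) for the 31 Wnt signalling genes tested, in differentiated and in undifferentiated cells. Filled points have an adjusted p below 0.05. In differentiated cells 7 genes lie above and 11 below 0 as called, while in undifferentiated cells no point is filled.

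Whether the BIGH3 effect differed between states was tested by the interaction, the log2 fold change in differentiated cells minus that in undifferentiated cells. It was called for 13 of 31 members (41.9%), 5 positive and 8 negative, against 32.2% of all genes, with 16.2% positive and 16.0% negative. On the TPM scale 66.1% of all called interactions were positive, against 50.3% on the count scale. Among the negative interactions Wif1 had the largest, at -3.30 ± 0.31 (adjusted p = 3.95e-08). Lrp5 followed at -1.20 ± 0.11 (adjusted p = 4.46e-08), then Tcf7l1 at -0.67 ± 0.08 (adjusted p = 2.64e-06), Sfrp2 at -0.65 ± 0.07 (adjusted p = 2.57e-07) and Rspo3 at -0.63 ± 0.10 (adjusted p = 3.38e-05). Lrp6, Gsk3b and Fzd2 were the other negative ones, between -0.46 and -0.31, and Fzd2 was called in 17 of 21 alternatives, but not without the 3 liver-rich libraries (adjusted p = 0.118). The genes with a negative interaction thus comprised co-receptors, a receptor, a pair of Wnt-binding inhibitors, an R-spondin, a kinase of the destruction complex and a repressor TCF.

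Lef1 had the largest positive interaction, at 1.47 ± 0.29 (adjusted p = 0.000507). Tle2 followed at 1.07 ± 0.15 (adjusted p = 1.84e-05), and this call was lost on both TPM scales and with length offsets (adjusted p = 0.154, 0.165 and 0.225). Axin2 was at 0.75 ± 0.24 (adjusted p = 0.0198), and was called in 14 of 21 alternatives, but not without undifferentiated control 2 (adjusted p = 0.0633) or without the 3 liver-rich libraries (adjusted p = 0.126). Lgr4 and Rspo2 were at 0.34 ± 0.06 and 0.28 ± 0.07. Dkk2, called for BIGH3 in differentiated cells, did not pass the interaction test (-1.38 ± 0.53, adjusted p = 0.0524), so a difference between states was not shown for it. Without undifferentiated BIGH3 1, undifferentiated control 1 or differentiated BIGH3 1 the adjusted p of Dkk2 was 0.0393, 0.0374 and 0.0222. The same held for Kremen1, Ctnnb1, Fzd5 and Lrp4, whose interactions were -0.14, -0.15, 0.30 and 0.23, although Lrp4 passed without undifferentiated BIGH3 1 (adjusted p = 0.0315) and Ctnnb1 in DESeq2 (adjusted p = 0.0171). Without undifferentiated control 3 or differentiated BIGH3 2 the interaction of Wnt10b, at 0.31 ± 0.13 (adjusted p = 0.0767), was called (adjusted p = 0.0260 and 0.0284).

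Differentiated cells were compared with undifferentiated cells within each treatment. These comparisons share their libraries with those above, so the values are given side by side. In BIGH3 cells 3 members rose and 21 fell, 77.4% of 31, against 56.6% of all genes, with 28.9% higher and 27.7% lower. In control cells 6 rose and 18 fell, also 77.4%, against 57.7% of all genes, with 29.1% higher and 28.6% lower. The members' median log2 fold change was -0.51 in BIGH3 cells and -0.27 in control cells, against 0.01 and -0.01 for all genes. The scale bears on the direction: on the log2(TPM + 0.1) scale the median of all genes was -0.20 in BIGH3 and -0.31 in control cells, and that of the members -0.64 and -0.55. Of all called genes 26.7% in BIGH3 and 19.9% in control cells were then higher, against 51.1% and 50.5% on the count scale.

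Most nuclear factors and the ligands Wnt10b and Wnt5a were lower after differentiation in both treatments. Tcf7l1 fell by 1.89 ± 0.06 on the log2 scale in BIGH3 cells (adjusted p = 4.61e-16) and by 1.22 ± 0.06 in control cells (adjusted p = 2.79e-13). Tle2 fell by 1.54 ± 0.10 in BIGH3 cells (adjusted p = 4.65e-10) and by 2.61 ± 0.11 in control cells (adjusted p = 5.2e-13). These falls include retained-intron transcripts, which made up 62.0 ± 7.3% of Tle2 TPM in undifferentiated BIGH3 and 68.8 ± 10% in undifferentiated control cells. In differentiated cells they made up 43.8 ± 3.3% and 26.4 ± 7.1%. Tle1, a co-repressor of the same family, fell by 1.01 ± 0.09 in BIGH3 cells (adjusted p = 3.29e-09) and by 0.80 ± 0.09 in control cells (adjusted p = 7.25e-08). Tcf7l2 fell by 0.88 ± 0.06 and by 0.93 ± 0.06. Wnt10b fell by 0.95 ± 0.09 in BIGH3 cells (adjusted p = 2.23e-08) and by 1.26 ± 0.09 in control cells (adjusted p = 2.72e-10). Wnt5a fell by 0.47 ± 0.09 in BIGH3 and by 0.43 ± 0.09 in control cells. For Tcf7l2, Tle1, Wnt10b and Wnt5a the interaction was not called (adjusted p between 0.0767 and 0.854). Among receptors Lgr4 fell by 0.71 ± 0.04 in BIGH3 cells and by 1.04 ± 0.04 in control cells, and Fzd1, Fzd2, Fzd4, Fzd8 and Lrp4 fell in both treatments, by 0.21 to 0.83. Fzd8 was the least certain of these, called in 18 of 22 alternatives in BIGH3 cells, with adjusted p-values up to 0.157. Without undifferentiated BIGH3 1 or 3 its adjusted p there was 0.0564 and 0.0522, and without the 3 liver-rich libraries 0.0539. In control cells that of Fzd8 was 0.0594 and 0.0886 without undifferentiated or differentiated control 3. Fzd1 was called in 21 of 22 alternatives in BIGH3 cells, with adjusted p-values up to 0.109. Fzd7 was not called in either (log2 fold changes -0.08 and -0.02). Fzd5 rose in BIGH3 cells, by 0.52 ± 0.11, and was at 0.22 ± 0.11 in control cells (adjusted p = 0.0962, and 0.0406 without differentiated control 1). The rise was not called on the TPM scales (adjusted p = 0.135 and 0.0987). Lrp6 fell by 0.70 ± 0.05 in BIGH3 and by 0.24 ± 0.05 in control cells, Dkk3 by 0.30 ± 0.04 and by 0.26 ± 0.04, and Znrf3 by 0.51 ± 0.10 and by 0.37 ± 0.10.

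For Wif1, Lrp5, Lef1 and the R-spondins the direction or the call differed between treatments, and each of these interactions was called. Wif1 fell by 0.74 ± 0.24 on the log2 scale in BIGH3 cells (adjusted p = 0.0113), and rose by 2.56 ± 0.20 in control cells (adjusted p = 9.46e-10). The fall in BIGH3 cells was called in 17 of 22 alternatives, with adjusted p-values up to 0.266 and log2 fold changes from -0.98 to -0.42. Among its losses were those without undifferentiated BIGH3 1 (adjusted p = 0.0670), without differentiated BIGH3 3 (adjusted p = 0.0527) and without the 3 liver-rich libraries (adjusted p = 0.0823). Lrp5 fell by 0.42 ± 0.08 in BIGH3 cells (adjusted p = 0.000195), and rose by 0.79 ± 0.08 in control cells (adjusted p = 3.04e-08). Lef1 rose by 1.47 ± 0.20 in BIGH3 cells (adjusted p = 2.82e-06), and was at 0.00 ± 0.21 in control cells (adjusted p = 0.990). Dkk2 was at 0.61 ± 0.38 in BIGH3 cells (adjusted p = 0.178), and rose by 1.99 ± 0.38 in control cells (adjusted p = 0.000126), with an interaction that was not called. Sfrp2 fell in both, by 1.21 ± 0.05 in BIGH3 and by 0.56 ± 0.05 in control cells.

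Smaller changes with differentiation depended on the scale. Rspo2 was at 0.16 ± 0.05 in BIGH3 cells and -0.12 ± 0.05 in control cells, and Rspo3 at -0.25 ± 0.07 and 0.38 ± 0.07, all called. Leaving out 1 of several single libraries ended the calls of Rspo2, among them undifferentiated BIGH3 3 in BIGH3 cells (adjusted p = 0.0582) and undifferentiated control 3 in control cells (adjusted p = 0.201). Without the 3 liver-rich libraries the adjusted p in control cells was 0.120 for Rspo2, 0.0775 for Ctnnb1 and 0.312 for Kremen1. On the TPM scale Rspo2 was at -0.05 in BIGH3 cells and Rspo3 at -0.03 in control cells. Ctnnb1 and Kremen1 were each called as higher in control cells by 0.12 on the count scale, and were at -0.14 and -0.17 on the log2(TPM + 0.1) scale, so no direction is given for them. Apc fell by 0.17 ± 0.06 in BIGH3 cells (adjusted p = 0.0221), called in 19 of 22 alternatives with adjusted p-values up to 0.206. Without undifferentiated or differentiated BIGH3 1 the adjusted p was 0.0563 and 0.1. In control cells Apc was at -0.10 ± 0.06 (adjusted p = 0.144, and 0.0440 without undifferentiated control 3). Gsk3b fell by 0.73 ± 0.04 in BIGH3 and by 0.32 ± 0.04 in control cells. Axin1 was not called in either treatment, but without the 3 liver-rich libraries it fell by 0.48 in BIGH3 cells (adjusted p = 0.00075) and by 0.33 in control cells (adjusted p = 0.0185). Axin2 was not called in either (adjusted p = 0.0505 in BIGH3 and 0.0774 in control cells), though it was in BIGH3 cells without differentiated BIGH3 1, as higher (adjusted p = 0.0320). In control cells it was called as lower with library totals and on both TPM scales (adjusted p = 0.0148, 0.0264 and 0.0215).

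**Figure D4:**
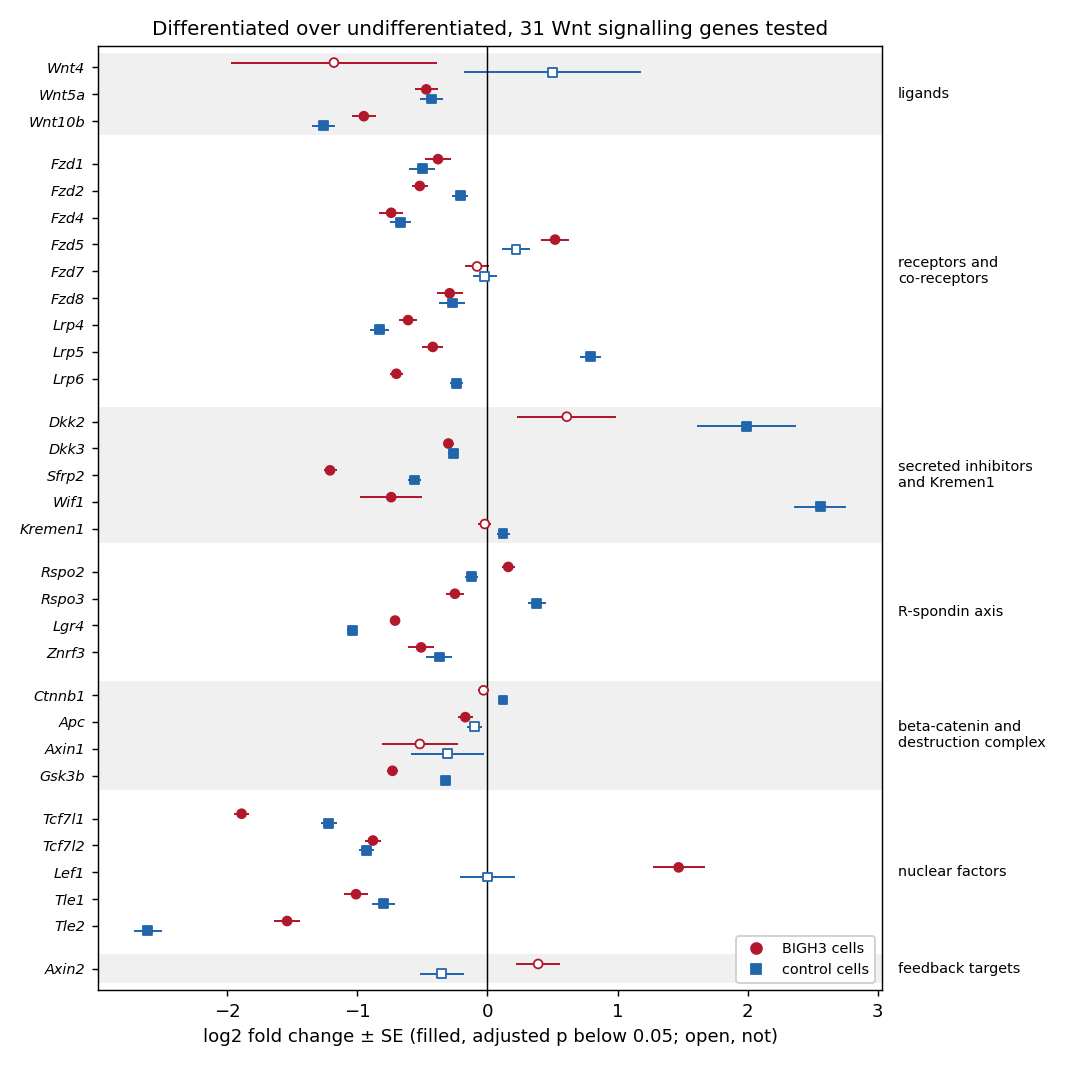
Log2 fold change of differentiated over undifferentiated cells (points, with SE as bars) for the 31 Wnt signalling genes tested, in BIGH3 and in control cells. Filled points have an adjusted p below 0.05. Wif1, Lrp5, Rspo2 and Rspo3 are called on opposite sides of 0 in the 2 treatments, and Tcf7l1 and Tle2 lie far to the left in both.

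Other genes of the pathway came from a list of 89, of which 61 were tested. With BIGH3 in differentiated cells 18 rose and 12 fell (49.2%), near the background of 45.5% of all genes. In undifferentiated cells the number was 0. Differentiation gave 18 higher and 20 lower in BIGH3 cells (62.3%, against 56.6% of all genes), and 15 and 24 in control cells (63.9%, against 57.7%). The interaction was called for 17 as positive and 10 as negative (44.3%, against 32.2% of all genes). Among the 3 other ligands tested, Wnt6 rose to 11.2 ± 0.81 CPM in differentiated BIGH3 cells, against 3.26 ± 0.33 CPM in differentiated control cells (log2 fold change 1.78 ± 0.15, adjusted p = 3.71e-09). Wnt10a, a close relative of Wnt10b, averaged 4.13 ± 0.57 and 1.44 ± 0.041 CPM in these groups (1.52 ± 0.21, adjusted p = 5.36e-06). Wnt9a was lower, at 2.85 ± 0.45 and 6.98 ± 0.93 CPM (-1.29 ± 0.15, adjusted p = 7.3e-07). Porcn and Wls, needed for Wnt lipidation and secretion, were not called for BIGH3 (0.04 and 0.07), and both rose with differentiation in BIGH3 cells (by 0.93 and 0.35) and in control cells (by 0.73 and 0.29).

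All 4 other receptors and co-receptors tested rose with BIGH3 in differentiated cells, a comparison in which 22.6% of all genes were called as higher. Ror1, a receptor tyrosine kinase for Wnt5a, averaged 52.5 ± 2.6 CPM in differentiated BIGH3 and 21.6 ± 2.3 CPM in differentiated control cells (1.28 ± 0.08, adjusted p = 2.91e-11). Ptk7, a co-receptor of the planar polarity branch, averaged 107 ± 2.1 and 70.5 ± 0.83 CPM (0.60 ± 0.05), and Ryk 160 ± 7.7 and 133 ± 2.1 CPM (0.26 ± 0.06). The remaining one, Lgr6, a receptor for R-spondins, was at 1.33 ± 0.42 (adjusted p = 0.0154) on few reads, and is named after its value was seen. Of 9 planar polarity genes 4 rose, among them Daam1 (0.48 ± 0.06) and Prickle2 (0.39 ± 0.10), and 1 fell, Vangl2 (-0.36 ± 0.09), so that 55.6% were called, near the 45.5% of all genes. Among 3 other inhibitors Tpbg, a membrane protein, rose (0.62 ± 0.07), while Sostdc1 and Draxin were not called (-0.56 ± 0.25 and -0.94 ± 0.53). Without differentiated BIGH3 1 or differentiated control 1 the adjusted p of Sostdc1 was 0.0245 and 0.0267.

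Of 17 cytoplasmic components 3 rose and 2 fell, which is 29.4% called, below the 45.5% of all genes. Dact2, a Dishevelled-binding protein, averaged 12.6 ± 1.4 CPM in differentiated BIGH3 and 4.15 ± 0.45 CPM in differentiated control cells (1.60 ± 0.12, adjusted p = 4.71e-10). Its relative Dact3 was lower (-0.67 ± 0.08), and the kinase Csnk1a1 higher (0.22 ± 0.04). Of 14 nuclear components 2 rose and 4 fell (42.9%). Pygo1, a co-activator of β-catenin, averaged 35.8 ± 1.8 and 67.9 ± 4.9 CPM (-0.92 ± 0.07, adjusted p = 2.28e-10). Ctnnbip1, which blocks the binding of β-catenin to TCF factors, was also lower (-0.51 ± 0.07), and the co-repressor Aes was higher (0.31 ± 0.05). Of 9 reported target genes 66.7% were called: 2 rose, Ccn5 (0.47 ± 0.07) and Gja1 (0.80 ± 0.05), and 4 fell, among them Tnfrsf11b, the gene for the decoy receptor osteoprotegerin, at 107 ± 4.7 CPM in differentiated BIGH3 and 299 ± 10 CPM in differentiated control cells (-1.48 ± 0.06, adjusted p = 7.31e-15).

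**Figure D5:**
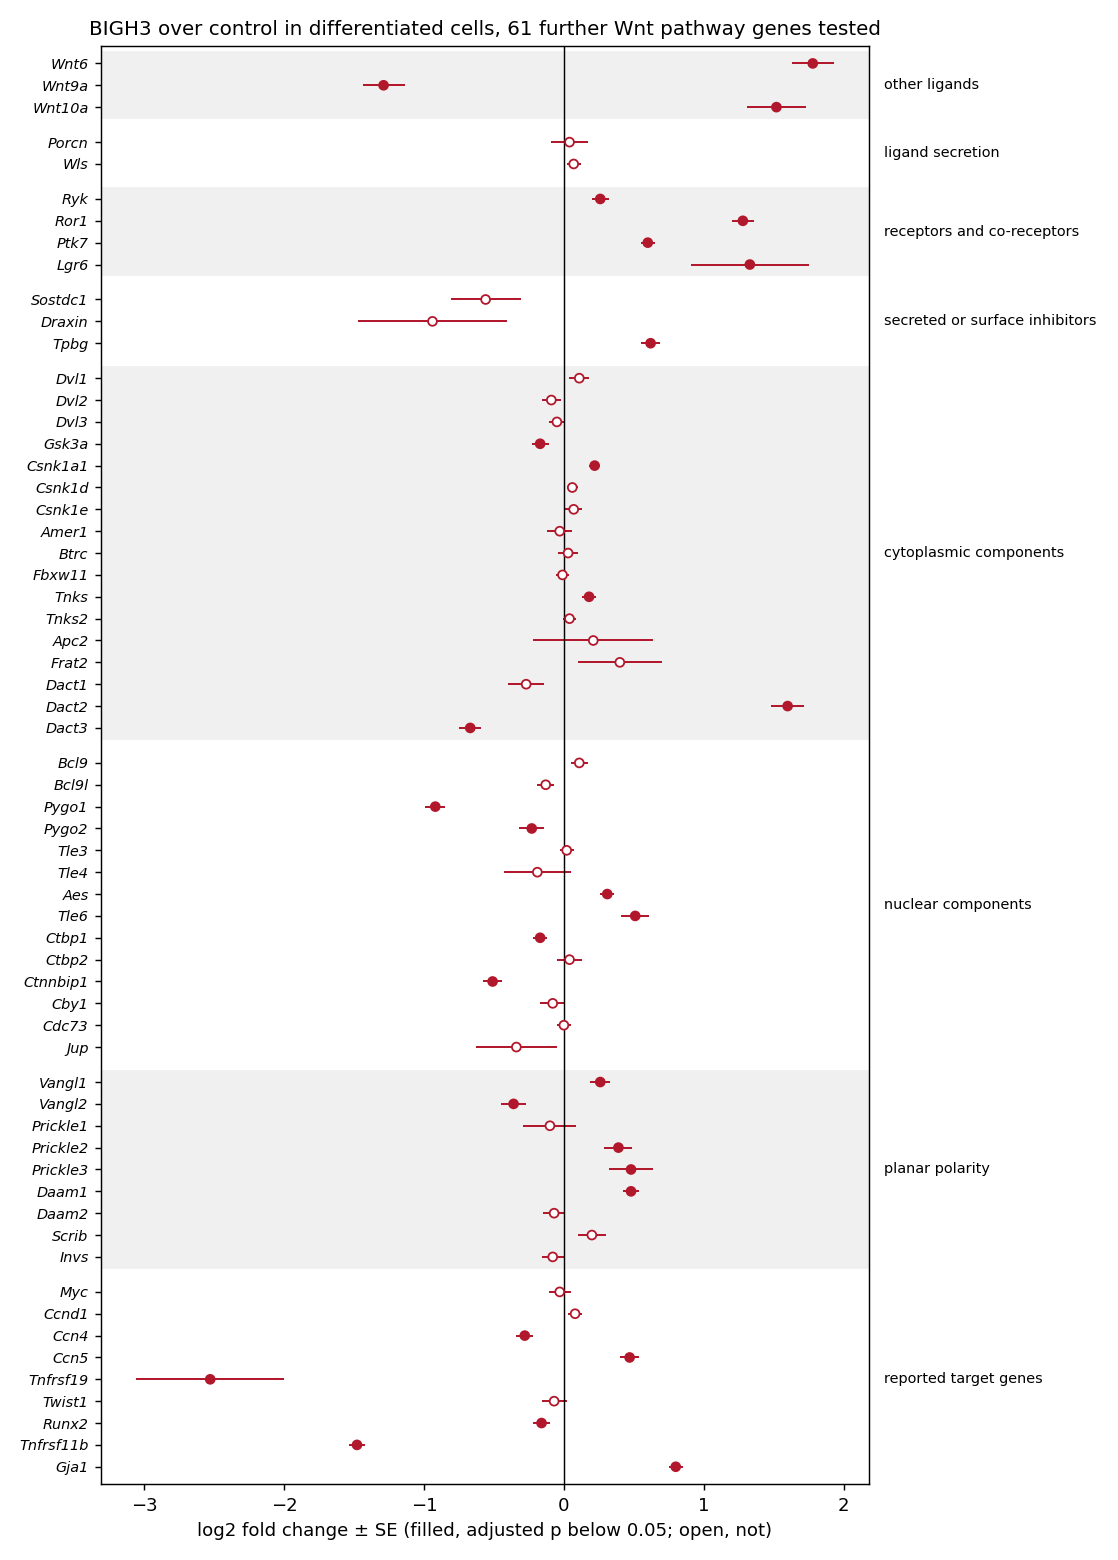
Log2 fold change of BIGH3 over control in differentiated cells (points, with SE as bars) for the 61 tested genes of the wider Wnt list, by role. Filled points have an adjusted p below 0.05 (18 to the right of 0 and 12 to the left). Wnt6, Dact2 and Wnt10a lie furthest to the right, and Tnfrsf19, at -2.53 with a wide error, and Tnfrsf11b furthest to the left.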

How the data were processed

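Library preparation used a KAPA kit of unstated strandness. The tools named in the submitters' processing notes were Salmon, cutadapt, FastQC and StringTie, with build mm10 and no versions. The deposited files give, per the file headers, the authors' expected counts (estimated reads, which need not be whole) and TPM of each transcript. Of 147828 transcripts 137063 (92.7%) matched GENCODE M21 (GRCm38) by identifier, and the others, with 1.28% to 3.67% of each library's reads, were not used. Estimated counts were summed per gene and rounded. Genes were filtered with filterByExpr by group, scaled by TMM and fitted in R 4.3.3 with edgeR 4.0.16, by robust quasi-likelihood over 12 libraries with a term for each group and 8 residual degrees of freedom. CPM used TMM-scaled library sizes. The SE was the absolute log2 fold change divided by the root of F. Tests were two-sided, called at an adjusted p below 0.05. The biological coefficient of variation was 8.18%.

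Alternatives were DESeq2 1.42.0, library totals without TMM, no low-count filter, a replicate block, the compared groups alone, limma 3.58.1 on log2 TPM with pseudocounts of 0.1 and 1, length offsets, each library left out, and 3 or 4 libraries with liver transcripts left out. Members called with a log2 fold change of at least 1 are given by library. Of the wider list, up to 3 genes per role with the smallest adjusted p for BIGH3 in differentiated cells or the interaction were named. Overlapping genes on the opposite strand were at most at 3.81 CPM (Ulk4, beside Ctnnb1). The members, lists, tests and alternatives were chosen with earlier results of these data known. Tables and figures were made with Python 3.11.15, pandas 2.3.3 and matplotlib 3.10.9.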

Additional observations from a re-analysis of the deposited data

Results flagged for a closer look

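The BIGH3 effect differed between differentiated and undifferentiated cells, by the interaction test of edgeR at an adjusted p below 0.05, for 13 of the 31 members tested. That is 41.9%, against 32.2% of all genes. The interaction, the log2 fold change in differentiated cells minus that in undifferentiated cells, was -3.30 for Wif1, -1.20 for Lrp5, -0.67 for Tcf7l1, -0.65 for Sfrp2, -0.63 for Rspo3, -0.46 for Lrp6, -0.41 for Gsk3b and -0.31 for Fzd2. It was 1.47 for Lef1, 1.07 for Tle2, 0.75 for Axin2, 0.34 for Lgr4 and 0.28 for Rspo2. Fzd2, Axin2 and Tle2 passed in 17, 14 and 18 of 21 alternatives, and the other members in all 21. Fzd2 and Axin2 did not pass without the 3 liver-rich libraries, nor Tle2 on the TPM scales or with length offsets.

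Of the named genes of the wider list the same test passed for 19. These genes were named by their small adjusted p in this test or for BIGH3 in differentiated cells. A high count was therefore fixed by that choice. Among all 61 tested genes of the list the interaction was called for 44.3%, against 32.2% of all genes. It was 2.09 for Wnt6, 1.72 for Dact2, 1.47 for Wnt10a, 1.29 for Ror1, 0.75 for Gja1, 0.71 for Ptk7, 0.60 for Tpbg, 0.54 for Ccn5, 0.53 for Prickle2, 0.45 for Daam1, 0.26 for Aes, 0.24 for Ryk and 0.22 for Csnk1a1. It was -1.58 for Tnfrsf11b, -1.32 for Wnt9a, -0.88 for Pygo1, -0.55 for Dact3, -0.49 for Ctnnbip1 and -0.43 for Vangl2. Without the 3 liver-rich libraries Csnk1a1 and Vangl2 did not pass (adjusted p = 0.0855 and 0.0676). All groups held 3 libraries, too few to test a single library as standing apart from its group.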

How the results depend on the processing

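The number of members called for BIGH3 in differentiated cells was 15 to 18 with 1 library left out and 12 to 18 in the other settings. For differentiation it was 21 to 24 and 22 to 25 in either treatment, for the interaction 12 to 15 and 10 to 14, and for BIGH3 in undifferentiated cells 0 throughout. Deviations of same-numbered libraries from their group means had correlations of -0.224 to 0.350. The highest was that of undifferentiated control 2 with differentiated control 2, which are both liver-rich, and the next was 0.148. The labels state no pairing, and whether same-numbered libraries shared any processing was not tested. With the replicate block 18, 0, 24, 24 and 13 members were called for BIGH3 in differentiated cells, BIGH3 in undifferentiated cells, differentiation in BIGH3 cells, differentiation in control cells and the interaction.

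For differentiation in control cells 3 genes turned direction: Ctnnb1 at -0.03 with library totals and -0.14 on both TPM scales, Kremen1 at -0.03 with library totals and -0.17 and -0.16 on the TPM scales, and Rspo3 at -0.03 on both TPM scales. Rspo2 turned for differentiation in BIGH3 cells, at -0.05 on both TPM scales. Library totals moved the median of all genes to -0.10 in BIGH3 and -0.16 in control cells for differentiation. For BIGH3 in differentiated cells no called member turned direction, and 6 lost the call in at least 1 setting: Axin2, Lrp4, Dkk2, Fzd5, Ctnnb1 and Kremen1.

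Low reads limit Wnt4, Dkk2, Lef1 and Wif1, with 78, 294, 836 and 882 reads in all, and the 12 members that were not tested.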
